A study of Equus caballus with 68 samples.

Results

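Inhibitors of the cell cycle and 2 genes of the p53 response, MDM2 and BTG2, were followed in equine bone marrow mononuclear cells (BMNC) before and during culture in synovial fluid. The members were chosen by name, as the rows of the expression table whose gene symbol was CDKN1A, CDKN1B, CDKN1C, CDKN2A, CDKN2B, CDKN2C, CDKN2D, MDM2 or BTG2. Of the 9 names, 8 had a row among the 30371 genes listed, and these 8 were among the 14570 genes tested. CDKN1C had no row under that symbol and was not analysed here.

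BMNC came from the sternal marrow of 8 healthy adult Thoroughbred horses (2 females and 6 geldings, 3 to 9 years old), and each horse's cells were kept separate. Uncultured cells (0 h, n = 8) were set against cells grown in undiluted, cell-free synovial fluid of the same horse, taken either from a healthy joint (SF) or from a joint inflamed by an injection of lipopolysaccharide (ISF). Cells were harvested after 48 h (n = 7 per fluid), 96 h (n = 8), 6 d (n = 8) and 10 d (n = 7), which gave 68 RNA sequencing libraries in 9 groups. The question was how BMNC change over time in each fluid and how the inflamed fluid alters that course, and the inhibitors bear on whether the cells go on dividing.

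The CIP/KIP inhibitors p21 (CDKN1A), p27 (CDKN1B) and p57 (CDKN1C) bind complexes of cyclins with cyclin-dependent kinases, while the INK4 inhibitors p16 (CDKN2A), p15 (CDKN2B), p18 (CDKN2C) and p19 (CDKN2D) bind CDK4 and CDK6 and keep them from the D cyclins. Both families hold the retinoblastoma protein in its growth-restraining form. The transcription factor p53 induces CDKN1A, BTG2 and MDM2 after damage or stress, and the MDM2 protein in turn marks p53 for destruction. Myeloid progenitors of the marrow divide, and they leave the cycle as they mature to granulocytes or macrophages.

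Levels are GeTMM, a read number divided by gene length and by a scaling factor of the library, so that genes can be compared with each other per unit of length. Libraries held 15.6 to 35.8 M reads on genes (median 22.1 M). For horse Moon the SF library of 6 d stood apart, with a sum of 2.32 M GeTMM against 0.818 to 1.46 M in the others, and at 96 h the ISF library of Dealings resembled Dreamer most and that of Dreamer resembled Dealings most (correlations of 0.921 and 0.928 over 200 genes), whereas the other 66 matched the horse named on them. Calls of members that depend on these libraries are given with and without them. The make-up of the cells changed greatly. All 5 macrophage markers were detected, and their summed level was 165 to 279 GeTMM at 0 h, 11129 to 18889 in ISF at 10 d and 10349.7 to 27099 in SF at 10 d. The 6 neutrophil precursor markers in the table summed to 11356 to 20997 GeTMM at 0 h, 0.759 to 63.7 in ISF at 10 d and 2.15 to 1648 in SF at 10 d. The 4 erythroid markers summed to 76.2 to 1230.4 GeTMM at 0 h and to at most 1.53 in either fluid at 10 d, with ALAS2 at 0 in each ISF library of that time. The 5 T cell markers summed to 127 to 321 GeTMM at 0 h, 4.33 to 14.8 in ISF and 23.5 to 199 in SF at 10 d, and the 4 B cell markers to 56.1 to 158, 1.42 to 10.2 and 6.10 to 139. Fewer cells of a type and less RNA per cell cannot be told apart in such bulk libraries, and the part of these shifts in the results below was not tested.

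From 0 h to 10 d the members split into those that rose and those that fell, and the same 3 rose in both fluids, namely CDKN1A, CDKN2A and CDKN2B. In ISF 7 of the 8 members changed (3 higher, 4 lower) where 74.5% of all tested genes did. In SF all 8 changed (3 higher, 5 lower), against 69.6% of all tested genes. Calls were thus the rule in these 2 comparisons, which share the libraries of 0 h, and the sizes say more than the counts. Log2 fold changes ran from -4.01 for CDKN2D to 5.20 for CDKN1A in ISF and from -3.73 to 4.51, for the same genes, in SF.

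**Figure D1:**
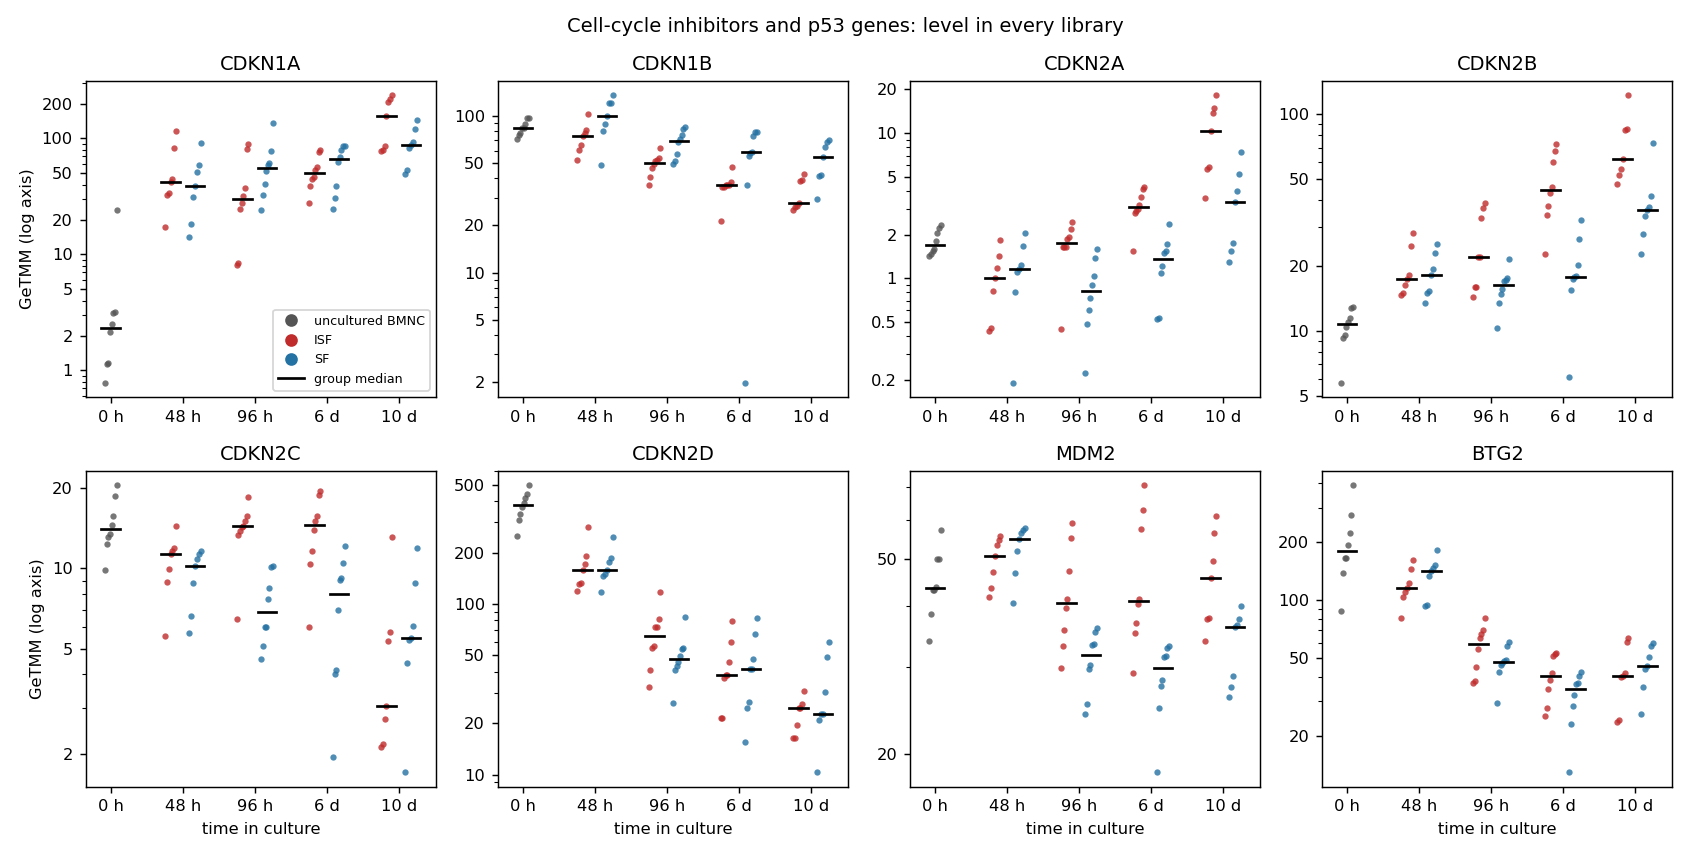
Level of the 8 members in every library, in GeTMM on a log axis, against time in culture; each point is 1 horse, grey for uncultured BMNC, red for ISF and blue for SF, and black lines are group medians. CDKN1A climbs from a median of 2.33 to 155 GeTMM in ISF while CDKN2D declines from 379.7 to 24.5, and the single low point of CDKN1B in SF at 6 d is the library of Moon.

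CDKN1A (ENSECAG00000021543) encodes p21, the inhibitor induced by p53. It was close to silent in uncultured BMNC, with 0.783 to 3.17 GeTMM in 7 horses and 24.1 GeTMM (515 reads) in Flash (median 2.33, n = 8). At 48 h it ranged from 17.2 to 116 GeTMM (median 42.5, n = 7) in ISF and from 14.1 to 91.1 GeTMM (median 38.7, n = 7) in SF. The library of Flash at 0 h was thus the only one of its group to reach the range of the cultured cells. The rise over these 48 h was called in ISF (log2 fold change 3.60, SE 0.44, FDR = 2.41e-10) and in SF (3.32, SE 0.44, FDR = 3.44e-09), in 7 of 7 horses each. Without Flash the rise was 3.99 in ISF and 3.70 in SF, and both calls held in the 17 alternative analyses.

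No change of CDKN1A was called between 48 h and 6 d in either fluid. At 96 h it was 8.19 to 90.2 GeTMM (median 30.0, n = 8) in ISF and 24.4 to 137 GeTMM (median 55.5, n = 8) in SF, lower in ISF in 7 of 8 horses, a difference that did not pass the test (-0.87, SE 0.42, FDR = 0.191). At 6 d the ranges were 27.7 to 79.0 GeTMM (median 50.3, n = 8) in ISF and 24.6 to 85.7 GeTMM (median 65.9, n = 8) in SF, and they overlapped almost fully. A further rise came in ISF from 6 to 10 d (1.42, SE 0.44, FDR = 0.0245), to 77.6 to 235 GeTMM (median 155, n = 7), in 7 of 7 horses. The call was lost without Catnip (1.27, FDR = 0.0654), Dealings (1.32, FDR = 0.0970) or Ollie (1.30, FDR = 0.122). Over the alternatives the FDR ran from 0.00595 to 0.122. Leaving out Catnip, Dealings or Ollie also lowered the calls over all tested genes in this interval, from 1533 to 1182, 1089 and 854. In SF the level at 10 d was 49.2 to 144 GeTMM (median 88.2, n = 7), and the change from 6 d was not called (0.63, SE 0.44, FDR = 0.390). At 10 d the difference between the fluids was 0.69 (95% interval -0.20 to 1.58, FDR = 0.302), higher in ISF in 5 of 7 horses. Ordered by mean level, ISF at 10 d came first, and no neighbours among the 8 cultured groups differed by more than the larger SD of the pair, whereas the lowest of them, ISF at 96 h, stood 2.99 above 0 h on the log2 scale.

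CDKN1B (ENSECAG00000023549) encodes p27, an inhibitor that is abundant in resting cells. It was present at 71.5 to 98.2 GeTMM (median 84.2, n = 8) at 0 h. In ISF it was 52.6 to 104 GeTMM (median 75.0) at 48 h, 36.2 to 62.2 (median 50.5) at 96 h, 21.3 to 47.2 (median 36.1) at 6 d and 25.0 to 42.8 (median 27.7) at 10 d. In SF it was 49.0 to 136 GeTMM (median 99.7) at 48 h, 49.6 to 85.3 (median 69.8) at 96 h, 1.97 to 79.8 (median 58.7) at 6 d and 29.6 to 70.8 (median 54.7) at 10 d. After 48 h the medians went down in both fluids, further in ISF, and the ranges at 10 d lay wholly below those of 0 h. Over the 10 d CDKN1B fell in ISF (-1.39, SE 0.32, FDR = 1.06e-04) and in SF (-0.72, SE 0.32, FDR = 0.0410). The SF call held in 9 of the 17 alternatives (FDR from 1.23e-04 to 0.118), being lost without Catnip, Flash, Lurie, Ollie or RimRun, with a pseudocount of 0.1, with no filter on low values, and under a requirement that the change reach 1 in size on the log2 scale.

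CDKN1B was lower in ISF than in SF in 6 of 7 horses at 48 h, 8 of 8 at 96 h, 7 of 8 at 6 d and 7 of 7 at 10 d, yet none of these differences was called, at log2 fold changes of -0.39, -0.44, -0.24 and -0.67 (FDR of 0.653, 0.415, 0.602 and 0.148). The exception at 6 d was Moon, whose SF library held 1.97 GeTMM (12 reads) against 36.2 to 79.8 in the other 7, and the SD of that group was 1.59 on the log2 scale against 0.16 to 0.50 in the other groups. Without it the difference was -0.79 at 6 d (FDR = 2.59e-04) and -0.67 at 10 d (FDR = 0.00335), and the falls from 48 to 96 h were called in ISF (-0.56, FDR = 0.0108, range 0.00251 to 0.385) and in SF (-0.51, FDR = 0.0159, range 0.00234 to 0.406). With all libraries weighted by their quality, CDKN1B was called lower in ISF at each of the 4 times, and the FDR over the alternatives ran from 0.0380 to 0.857 at 48 h, 0.00929 to 0.596 at 96 h, 1.45e-04 to 0.848 at 6 d and 0.00240 to 0.366 at 10 d. The weights also raised the calls over all tested genes. At these times 2233, 4206, 5447 and 3790 were called with weights, beside 245, 1524, 4405 and 3027 without them. In the fit of the groups compared alone CDKN1B was called lower in ISF at 96 h (-0.44, FDR = 0.0265) and 10 d (-0.67, FDR = 0.0292). That fit called 2686 of all tested genes at 96 h and 2974 at 10 d. The T and B cell markers were also lower in ISF than in SF at 10 d, as given above, and their part in the difference was not tested.

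Of the 2 CIP/KIP inhibitors, CDKN1A made up 0.801% to 21.2% (median 2.63%) of the summed GeTMM at 0 h, 66.8% to 90.0% (median 78.4%) in ISF at 10 d and 45.5% to 77.7% (median 63.7%) in SF at 10 d. Its share at 10 d was higher in ISF than in SF in 7 of 7 horses. The sum of both was 72.7 to 114 GeTMM at 0 h and 104 to 261 in ISF at 10 d.

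CDKN2D (ENSECAG00000034985), encoding p19 of the INK4 family, was by far the most abundant inhibitor of uncultured BMNC per unit of length and the member that fell most. It held 249 to 497 GeTMM (median 379.7, n = 8) at 0 h. In ISF it was 119 to 282 GeTMM (median 159) at 48 h, 32.5 to 118 (median 64.8) at 96 h, 21.4 to 79.0 (median 38.5) at 6 d and 16.3 to 30.8 (median 24.5) at 10 d. In SF it was 117 to 247 GeTMM (median 157), 26.4 to 83.9 (median 47.6), 15.6 to 82.3 (median 41.6) and 10.3 to 59.9 (median 22.6) at the same times. The fall came in steps and mostly before 96 h in both fluids. CDKN2D fell from 0 to 48 h in ISF (-1.18, SE 0.28, FDR = 2.82e-04) and in SF (-1.16, SE 0.28, FDR = 4.15e-04), and from 48 to 96 h in ISF (-1.38, SE 0.28, FDR = 1.62e-04) and in SF (-1.76, SE 0.28, FDR = 1.11e-06). In each of these 4 steps the level was lower in 7 of 7 horses, and the ranges before and after did not overlap except in ISF at 48 h. From 6 to 10 d in ISF the change of -0.80 missed the threshold (FDR = 0.0502) and passed it with horse as a block (-0.84, FDR = 0.0155; range over the alternatives 0.0155 to 0.173). It also passed without the SF library of Moon at 6 d (FDR = 0.0319) and without the 2 ISF libraries of uncertain horse (0.0475). Over the 10 d the mean level dropped 16.7-fold in ISF and 12.2-fold in SF (log2 fold changes -4.01 and -3.73, FDR = 3.37e-20 and 1.25e-18). No difference between the fluids was called at any time, and the 95% intervals reached from -0.84 (at 10 d) to 0.89 (at 96 h). The neutrophil precursor markers also fell over the same time, and their part in the fall of CDKN2D was not tested.

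CDKN2B (ENSECAG00000018561) encodes p15, the INK4 inhibitor that TGF-beta induces. It held 5.75 to 12.9 GeTMM (median 10.7, n = 8) at 0 h and rose within 48 h to 14.6 to 28.3 GeTMM (median 17.3, n = 7) in ISF and 13.4 to 25.1 GeTMM (median 18.0, n = 7) in SF. Each library of 48 h lay above each uncultured one, and both rises were called (0.82, SE 0.24, FDR = 0.00299 in ISF and 0.77, SE 0.24, FDR = 0.00640 in SF). The fluids then parted. At 96 h CDKN2B was 14.3 to 38.7 GeTMM (median 21.9) in ISF and 10.3 to 21.4 (median 16.3) in SF, and at 6 d it was 22.5 to 72.7 (median 44.8) in ISF and 6.11 to 32.6 (median 17.8) in SF, n = 8 each. In ISF the rise from 96 h to 6 d was called (0.93, SE 0.23, FDR = 0.00758) and was seen in 8 of 8 horses, while in SF the change was 0.17 (FDR = 0.739). In SF the rise came from 6 to 10 d (1.01, SE 0.24, FDR = 0.00822), in 6 of 7 horses, to 22.6 to 73.5 GeTMM (median 36.2, n = 7). That call was lost in the fit of the groups compared alone (FDR = 0.204, within 0.00103 to 0.204 over the alternatives). Of all tested genes 3 were called for this interval in that fit, beside 696 in the fit of all 9 groups. ISF at 10 d held 47.5 to 122 GeTMM (median 62.1, n = 7), and its step from 6 d was not called (0.60, SE 0.24, FDR = 0.0989) but passed with horse as a block (0.60, FDR = 0.0414; range 0.0381 to 0.256) and without the SF library of Moon at 6 d (FDR = 0.0499).

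CDKN2B was higher in ISF than in SF at 6 d in 8 of 8 horses (1.31, SE 0.23, FDR = 1.11e-05) and at 10 d in 6 of 7 horses (0.90, SE 0.25, FDR = 0.00574). Leaving out Lurie took the call at 10 d past the threshold (0.76, FDR = 0.0511; range 0.00101 to 0.0511). At 96 h ISF was higher in 7 of 8 horses without a call (0.55, SE 0.23, FDR = 0.123), and the call appeared without Moon (0.64, FDR = 0.0350) and with library weights (0.61, FDR = 0.0169; range 0.0169 to 0.326). Over the 10 d the mean rose 7.02-fold in ISF (log2 fold change 2.66, FDR = 1.75e-15) and 3.76-fold in SF (1.76, FDR = 2.33e-09). In the order of the groups, ISF at 10 d lay above ISF at 6 d and SF at 10 d above ISF at 96 h by more than the larger SD of each pair, and every cultured group lay above 0 h.

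CDKN2A (ENSECAG00000018552) encodes p16 and, from another reading frame, ARF, the protein that restrains MDM2, and counts per gene do not separate the 2 products. By median it was the scarcest member at 0 h, with 1.43 to 2.31 GeTMM (median 1.69, 18 to 33 reads, n = 8). It stayed at such levels through 96 h, between 0.433 and 2.42 GeTMM in ISF and between 0.190 and 2.05 in SF, which rest on 2 to 38 reads per library. At 6 d it was 1.54 to 4.22 GeTMM (median 3.10, n = 8) in ISF and 0.520 to 2.37 (median 1.35, n = 8) in SF. At 10 d it reached 3.58 to 18.2 GeTMM (median 10.3, 40 to 202 reads, n = 7) in ISF and 1.29 to 7.43 (median 3.35, 21 to 99 reads, n = 7) in SF. The rise was thus late and larger in ISF, although the ranges of the fluids overlapped at both times.

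From 6 to 10 d CDKN2A rose in ISF (1.30, SE 0.24, FDR = 1.04e-04) in 6 of 7 horses and in SF (0.86, SE 0.24, FDR = 0.0256) in 7 of 7. The call in ISF held in each alternative, whereas that in SF was lost without Flash (FDR = 0.0564), Lurie (0.124) or Ollie (0.111), with voom on the recovered reads (0.0547) and in the fit of the groups compared alone (0.283; range 0.00665 to 0.283). In these settings the calls over all tested genes in this SF interval went from 696 to 576, 272, 198, 515 and 3. ISF exceeded SF at 6 d (0.87, SE 0.23, FDR = 0.00227) in 7 of 8 horses and at 10 d (1.31, SE 0.24, FDR = 4.74e-05) in 7 of 7. Over the 10 d the gene rose in ISF (1.86, SE 0.24, FDR = 2.62e-10), with no overlap of the ranges, and by less in SF (0.54, SE 0.24, FDR = 0.0367), a call that held in 7 of the 17 alternatives (range 0.0132 to 0.202). The highest SF value at 10 d, 7.43 GeTMM, was that of Lurie, whose library also held 4038 GeTMM of the 5 fibroblast or stromal markers against 0.406 to 517 in the other 6, and without Lurie the SF change was 0.37 (FDR = 0.202). The stromal markers summed to 0.123 to 49.2 GeTMM in ISF at 10 d, and their part in the CDKN2A values was not tested. With horse as a block, the early dip in ISF to 48 h (-0.54, FDR = 0.0262; range 0.00652 to 0.144; -0.50 and FDR = 0.0669 without the block) and the step from 96 h to 6 d in ISF (0.63, FDR = 0.0369; range 0.0369 to 0.268; FDR = 0.0871 without the block) were called as well.

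CDKN2C (ENSECAG00000004817), encoding p18, was called between the fluids at 96 h and 6 d and not at 48 h or 10 d. At 0 h it held 9.90 to 20.6 GeTMM (median 14.1, n = 8), and at 48 h 5.59 to 14.4 (median 11.3, n = 7) in ISF and 5.71 to 11.6 (median 10.2, n = 7) in SF. The step to 48 h in SF was not called (-0.62, FDR = 0.0562) but passed without the SF library of Moon at 6 d (FDR = 0.0459; range 0.00581 to 0.106). From 48 to 96 h it went up in 7 of 7 horses in ISF (0.37, FDR = 0.384) and down in 7 of 7 in SF (-0.33, FDR = 0.416), neither change being called. It then stood at 6.43 to 18.5 GeTMM (median 14.4, n = 8) in ISF and 4.58 to 10.2 (median 6.87, n = 8) in SF at 96 h, and at 6.04 to 19.5 (median 14.6, n = 8) and 1.95 to 12.2 (median 8.03, n = 8) at 6 d. ISF was higher at 96 h (0.85, SE 0.26, FDR = 0.0260) in 7 of 8 horses and at 6 d (0.93, SE 0.26, FDR = 0.00485) in 8 of 8. The call at 96 h was lost without Catnip (FDR = 0.0514), Dealings (0.0561), Dreamer (0.0859), Flash (0.0825), Lurie (0.0595) or Ollie (0.0867) and without the 2 ISF libraries of uncertain horse (0.0783; range 9.59e-04 to 0.0867), and that at 6 d in the fit of the groups compared alone (0.0516; range 0.00105 to 0.0516).

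From 6 to 10 d CDKN2C fell in ISF (-1.48, SE 0.27, FDR = 1.33e-04) in 7 of 7 horses, to 2.13 to 13.1 GeTMM (median 3.03, n = 7). In SF it went to 1.71 to 11.9 GeTMM (median 5.47, n = 7) with no call (-0.18, FDR = 0.727), and no difference between the fluids was called any more (-0.37, 95% interval -0.92 to 0.18, FDR = 0.385). Over the 10 d it fell in both fluids (-1.60 in ISF, FDR = 4.80e-07, and -1.23 in SF, FDR = 7.04e-05), in 7 of 7 horses each. The value of 13.1 GeTMM in ISF at 10 d belonged to Moon, and the other 6 horses held 2.13 to 5.79.

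CDKN2C can be set beside the genes of dividing cells. Of 16 proliferation genes tested (replication, mitosis and nucleotide synthesis genes such as TOP2A, CDK1 and MCM2, without MKI67, which had no row), 9 were higher in ISF at 96 h and 9 at 6 d, where 10.5% and 30.2% of all tested genes were called, and 15 fell in ISF from 6 to 10 d (10.5%). At 48 h and 10 d none was called between the fluids, by limma-trend or voom, with 1 and 2 of the 16 at an unadjusted p under 0.05. Their median log2 fold change was 0.75 at 96 h, 0.72 at 6 d and -1.21 over the last interval in ISF, beside -0.00, 0.00 and 0.00 for all tested genes. TOP2A, the topoisomerase of mitotic chromosomes, fell in ISF from 6 to 10 d (-1.68, SE 0.34, FDR = 3.70e-04) from 13.2 to 43.2 GeTMM (median 32.8) to 4.95 to 30.7 (median 8.10). The highest value at 10 d was again that of Moon, whose ISF library also had the highest mean level of the proliferation genes in that group, 5.21 against 3.42 to 4.22 in log2(GeTMM + 1). Across the 68 libraries CDKN2C was high where these genes were high, while CDKN1A was lowest in the uncultured cells of all horses but Flash, where they were also high.

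**Figure D2:**
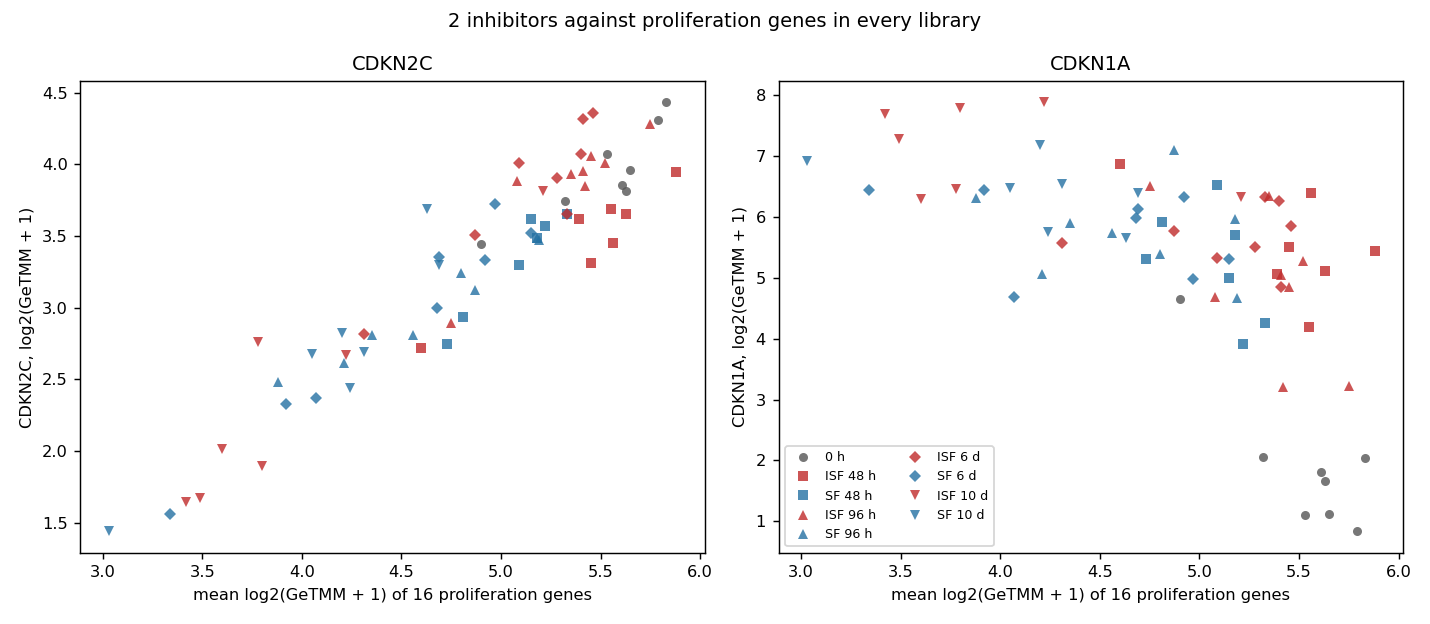
Level of CDKN2C (left) and CDKN1A (right) in log2(GeTMM + 1) against the mean log2(GeTMM + 1) of 16 proliferation genes, 1 point per library, grey for 0 h, red for ISF and blue for SF, with a symbol for each time. CDKN2C climbs along the axis of the proliferation genes. At the low end lie the ISF libraries of 10 d, except that of Moon (5.21), and some SF libraries. The lowest means of the proliferation genes were 3.03 in SF at 10 d, 3.34 in SF at 6 d and 3.42 in ISF at 10 d. For CDKN1A the uncultured libraries, except that of Flash (24.1 GeTMM), lie lowest, at high levels of proliferation genes. Groups and horses are shared among the points.

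The make-up of the INK4 family turned over during culture. CDKN2D held 89.8% to 95.6% (median 93.5%) of the summed GeTMM of the 4 INK4 genes at 0 h, 14.7% to 32.0% (median 20.9%) in ISF at 10 d and 20.1% to 58.1% (median 36.8%) in SF at 10 d. CDKN2B held 1.45% to 4.66% (median 2.34%) at 0 h, 54.5% to 77.2% (median 65.5%) in ISF and 36.1% to 70.3% (median 50.4%) in SF at 10 d. At 10 d CDKN2B lay above CDKN2D in every horse in ISF, whereas in SF CDKN2D was still the higher in Catnip (59.9 against 37.2 GeTMM) and Moon (48.6 against 33.9). At 6 d its median share (46.8%) was already above that of CDKN2D (36.0%) in ISF but not in SF (29.7% and 57.5%), and the share of CDKN2D was lower in ISF in 8 of 8 horses. CDKN2A stayed minor throughout, with medians of 0.423% at 0 h, 8.27% in ISF and 3.80% in SF at 10 d. The sum of the family was 277 to 519.9 GeTMM at 0 h and 69.6 to 166 in ISF at 10 d.

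**Figure D3:**
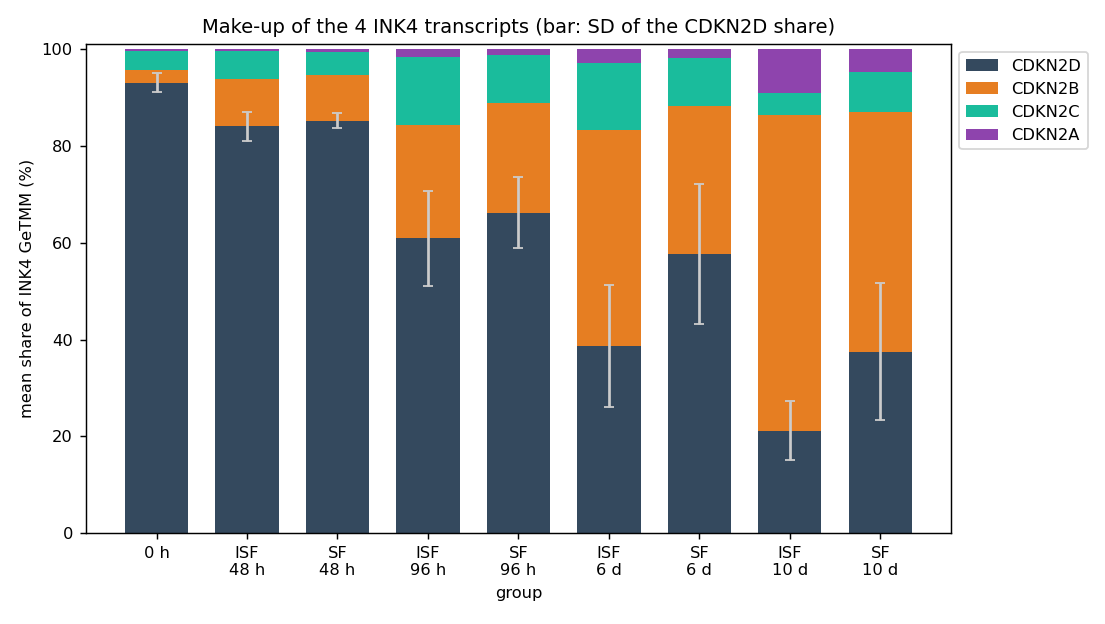
Mean share, in percent, of each INK4 gene in the summed GeTMM of CDKN2A, CDKN2B, CDKN2C and CDKN2D, for the 9 groups; grey bars are the SD of the CDKN2D share over 7 or 8 horses. The CDKN2D part shrinks from 93.0% at 0 h to 21.2% in ISF and 37.5% in SF at 10 d, and the CDKN2B part grows to 65.1% and 49.5%.

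MDM2 (ENSECAG00000013604), the ubiquitin ligase of p53 and itself a p53 target, was called in no comparison over time in ISF. Its medians there were 50.6 GeTMM at 48 h, 40.6 at 96 h, 41.0 at 6 d and 45.6 at 10 d, beside 43.6 at 0 h (34.0 to 57.4, n = 8), and the net change was 0.02 (95% interval -0.27 to 0.30, FDR = 0.924). In SF it fell from 48 to 96 h (-0.74, SE 0.15, FDR = 6.36e-05), from 40.6 to 57.9 GeTMM (median 54.9, n = 7) to 24.1 to 36.2 (median 31.8, n = 8), with no overlap. It then stayed low in SF, at 18.3 to 33.2 GeTMM (median 29.9) at 6 d and 26.1 to 40.1 (median 36.3) at 10 d, and over the 10 d it fell (-0.43, SE 0.15, FDR = 0.00811), a call lost without Dreamer (FDR = 0.0552; range 0.00145 to 0.0552). MDM2 was therefore higher in ISF than in SF at 96 h (0.43, SE 0.14, FDR = 0.0385), at 6 d (0.66, SE 0.14, FDR = 2.21e-04) and at 10 d (0.44, SE 0.15, FDR = 0.0280), in 7 of 8, 8 of 8 and 7 of 7 horses. The call at 6 d held except where a change of at least 1 on the log2 scale was required. That at 96 h was lost without Catnip (FDR = 0.0829), Dealings (0.0852), Dreamer (0.104), Flash (0.125), Lurie (0.0689) or RimRun (0.0798), without the 2 ISF libraries of uncertain horse (a difference of 0.41) and with no filter (0.0595), and that at 10 d without Catnip (0.0766), Dreamer (0.0751), Ollie (0.0533) or RimRun (0.136), the ranges being 0.00722 to 0.125 and 0.00532 to 0.136.

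BTG2 (ENSECAG00000017203), an antiproliferative p53 target of the BTG/TOB family, fell early in both fluids. It ranged from 87.6 to 392 GeTMM (median 179, n = 8) at 0 h, with Moon highest and Flash lowest. At 48 h it was 80.8 to 161 GeTMM (median 115, n = 7) in ISF and 92.8 to 182 (median 141, n = 7) in SF, and at 96 h 37.4 to 80.6 (median 59.6, n = 8) and 29.3 to 60.8 (median 48.0, n = 8). The step from 48 to 96 h left no overlap in either fluid. It was called in ISF (-1.07, SE 0.23, FDR = 4.46e-04) and in SF (-1.47, SE 0.23, FDR = 1.22e-06), in 7 of 7 horses each. The first step was called in ISF (-0.67, SE 0.23, FDR = 0.0121), except without Moon (-0.52, FDR = 0.0552; range 0.00327 to 0.0552), and not in SF (-0.52, SE 0.23, FDR = 0.0637), where it passed with horse as a block (-0.49, FDR = 0.0290; range 0.0290 to 0.203). BTG2 reached its lowest medians at 6 d, 40.5 GeTMM in ISF and 34.7 in SF, the step from 96 h in SF being called with horse as a block (-0.62, FDR = 0.0420; range 0.0420 to 0.383; FDR = 0.145 without it). At 10 d it was 23.5 to 63.5 GeTMM (median 40.7, n = 7) in ISF and 25.9 to 60.1 (median 45.6, n = 7) in SF. The net fall was -2.22 in ISF (FDR = 4.75e-13) and -2.06 in SF (FDR = 8.46e-12), and no difference between the fluids was called at any of the 4 times. CDKN1A and BTG2, both targets of p53, thus moved in opposite directions over culture.

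**Figure D4:**
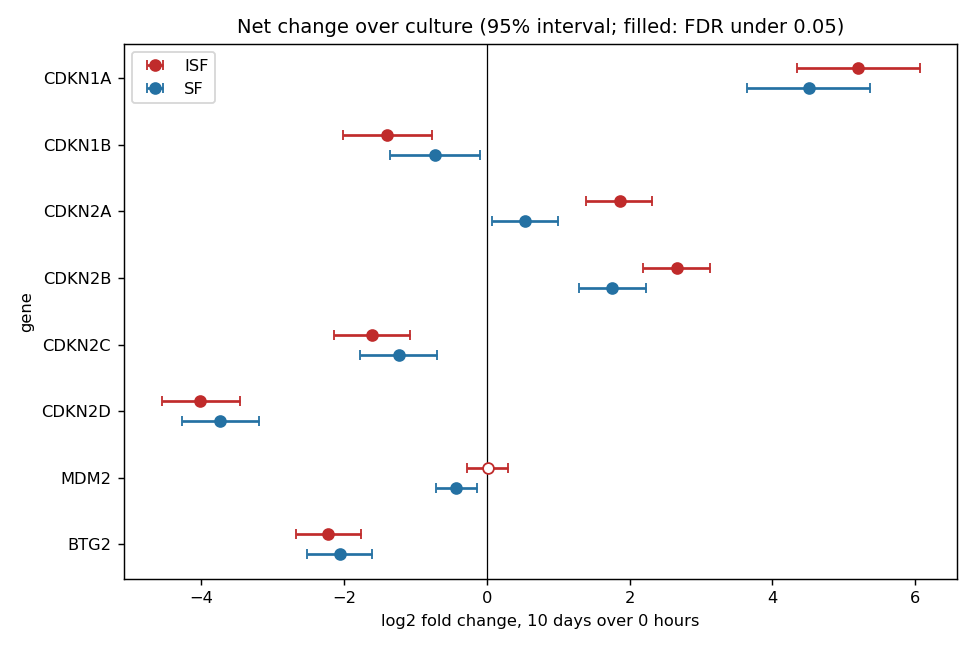
Log2 fold change from 0 h to 10 d of the 8 members, red for ISF and blue for SF, with 95% intervals; filled points had an FDR under 0.05. CDKN1A, CDKN2A and CDKN2B lie to the right of 0 in both fluids, CDKN1B, CDKN2C, CDKN2D and BTG2 to the left, and MDM2 in ISF, at 0.02, is the only open point.

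From 0 to 48 h 4 of 8 members changed in ISF (CDKN1A and CDKN2B higher, CDKN2D and BTG2 lower) beside 52.7% of all tested genes, and 3 of 8 in SF (CDKN1A and CDKN2B higher, CDKN2D lower) beside 45.4%. From 48 to 96 h the members called were all lower, 2 in ISF (CDKN2D and BTG2; 19.0% of all tested genes called) and 3 in SF (CDKN2D, MDM2 and BTG2; 27.3%). From 96 h to 6 d only CDKN2B in ISF was called (6.38% of all tested genes in ISF, 2.05% in SF), with 2 of 8 members in SF at an unadjusted p under 0.05 and none by voom. From 6 to 10 d 3 members were called in ISF (CDKN1A and CDKN2A higher, CDKN2C lower; 10.5%) and 2 in SF (CDKN2A and CDKN2B, both higher; 4.78%). The shares of members called in the first interval were near or below the background, those in the last above it, and the consecutive intervals share the libraries of the time between them.

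Between the fluids, each member called with all 68 libraries at equal weight in 1 fit was higher in ISF. CDKN1B, in contrast, was called lower in ISF in some alternatives, as given above. It was so called at 6 d and 10 d without the SF library of Moon and at all 4 times with library weights. In the fit of the groups compared alone it was called lower at 96 h and 10 d. No member was called at 48 h, when 1.68% of all tested genes were, and none of the 8 had an unadjusted p under 0.05 or was called by voom. At 96 h 2 of 8 were called (CDKN2C and MDM2; 10.5% of all tested genes), at 6 d 4 (CDKN2A, CDKN2B, CDKN2C and MDM2; 30.2%) and at 10 d 3 (CDKN2A, CDKN2B and MDM2; 20.8%). The median log2 fold change of the 8 members was 0.40, 0.52 and 0.14 at these 3 times, beside -0.00, 0.00 and -0.02 over all tested genes. In none of the 4 comparisons did the ranges of the fluids stay apart for a member, and the share of all tested genes with ranges apart is not given. CDKN1A, CDKN2D and BTG2 were not among the calls.

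**Figure D5:**
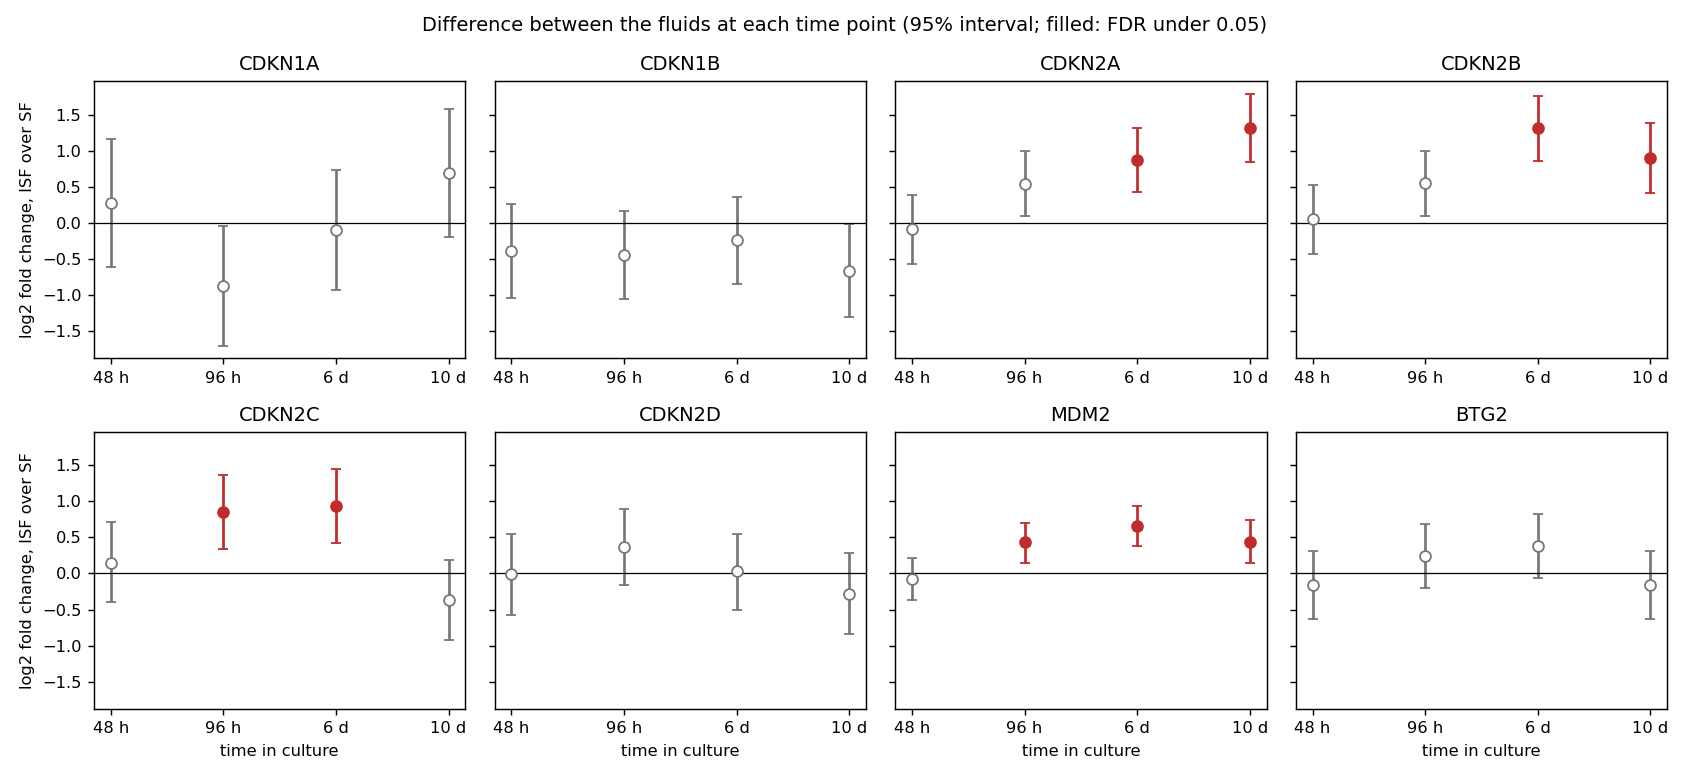
Log2 fold change of ISF over SF for the 8 members at 48 h, 96 h, 6 d and 10 d, with 95% intervals; filled red points had an FDR under 0.05. The difference in CDKN2A grows to 1.31 at 10 d, that in CDKN2C is called at 96 h and 6 d (0.85 and 0.93) and not at 10 d (-0.37), and CDKN1B lies below 0 at each time without a call.

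Whether the difference between the fluids itself changed was tested with an interaction term. From 48 h to 10 d it grew for 1 member, CDKN2A (1.41, SE 0.34, FDR = 0.0122), where 2.99% of all tested genes were called. That call was lost without Dealings (1.13, FDR = 0.109) or Flash (1.24, 0.0507), with a pseudocount of 0.1 (0.0694), with voom (0.0875) and in the fit of the groups compared alone (0.0630; range 0.00138 to 0.109). The values of CDKN2B (0.85, FDR = 0.181) and MDM2 (0.52, FDR = 0.183) had the same sign without a call, and both passed with library weights (FDR = 0.0286 and 0.0228, ranges 0.0286 to 0.463 and 0.0228 to 0.424). From 6 to 10 d no member was called (0.226% of all tested genes), and 1 of the 8, CDKN2C, had an unadjusted p under 0.05 (-1.30, SE 0.39, FDR = 0.108), with none called by voom. With horse as a block CDKN2C passed (-1.30, FDR = 0.0346), as it did without Moon (-1.53, FDR = 0.0248) and with library weights (-1.37, FDR = 0.0377; range 0.0248 to 0.469). These settings also raised the calls over all tested genes from 6 to 10 d. They went from 33 to 270 with the block, 194 without Moon and 202 with library weights.

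Of 28 other genes of the p53 pathway tested, 10 were higher and 12 lower in ISF at 10 d than at 0 h, and 10 higher and 11 lower in SF, where 74.5% and 69.6% of all tested genes were called. Their medians were -0.11 and -0.13 beside -0.03 and -0.01 for all tested genes. The highest called genes in ISF were GADD45G, a stress-induced growth arrest gene, which rose from 1.64 ± 0.810 GeTMM (SD, n = 8) to 28.8 ± 6.45 (n = 7; 3.52, FDR = 7.35e-19), and PHLDA3, an inhibitor of AKT, which rose from 0.682 ± 0.541 to 17.8 ± 10.1 (3.33, FDR = 5.99e-14). The lowest were GADD45A, which fell from 767 ± 333 to 165 ± 68.7 GeTMM (-2.24, FDR = 2.34e-15), and BTG1, the relative of BTG2, which fell from 351 ± 75.7 to 81.9 ± 31.5 (-2.15, FDR = 1.58e-13). GADD45A and GADD45G, of the same family, thus went opposite ways. GADD45G was also higher in ISF than in SF at each of the 4 times (1.06, 1.25, 1.15 and 0.96, the largest FDR being 0.0229), while the pathway had 5 genes higher and 1 lower in ISF at 6 d (30.2% of all tested genes called) and 4 higher and 3 lower at 10 d (20.8%).

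Among 24 tested G1 cyclins, their kinases and the RB/E2F genes, on which the inhibitors act, 5 rose and 14 fell over the 10 d in ISF and 5 rose and 15 fell in SF, beside 74.5% and 69.6% of all tested genes called. Their medians were -0.61 and -0.72, against -0.03 and -0.01 for all tested genes. E2F8 was at 0 in each library. The D cyclins CCND3 and CCND1 moved in opposite directions, CCND3 having the higher mean of the pair in both fluids at 10 d. CCND3 fell from 322 ± 37.0 GeTMM (SD, n = 8) at 0 h to 28.8 ± 5.90 (n = 7) in ISF (-3.46, FDR = 1.79e-23) and to 47.6 ± 10.1 (n = 7) in SF (-2.75, FDR = 8.73e-19), whereas CCND1 rose from 1.46 ± 0.434 to 14.7 ± 9.57 in ISF (2.47, FDR = 2.77e-11) and to 5.19 ± 3.90 in SF (1.15, FDR = 4.28e-04). CCND1 was higher in ISF than in SF at 96 h, 6 d and 10 d (1.02, 1.30 and 1.32; FDR = 0.0113, 2.58e-04 and 8.52e-04). E2F2, an activating E2F, fell from 75.8 ± 15.6 GeTMM to 6.33 ± 2.43 in ISF (-3.44, FDR = 6.77e-17), and E2F5, of the repressing kind, rose from 2.35 ± 0.637 to 13.3 ± 2.51 (2.10, FDR = 7.77e-14). Between the fluids 5 genes of this list were higher in ISF at 96 h (10.5% of all tested genes called) and 8 at 6 d (30.2%), with none lower. At 10 d 3 were higher and 1 lower (20.8%). The lower gene was CCND3 (-0.71, FDR = 0.0106), which was not called between the fluids at the earlier times.

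All 16 proliferation genes fell over the 10 d in ISF and 15 of 16 in SF, beside 74.5% and 69.6% of all tested genes called in either direction. Their medians were -1.59 and -1.37, against -0.03 and -0.01 for all tested genes. The mitotic kinase AURKB fell most, from 43.9 ± 15.2 GeTMM (SD, n = 8) to 5.39 ± 4.06 (n = 7) in ISF (-2.94, FDR = 1.98e-13) and 7.42 ± 3.31 (n = 7) in SF (-2.48, FDR = 7.52e-11). TYMS, which makes thymidylate for DNA synthesis, fell from 129 ± 25.0 to 25.4 ± 11.2 GeTMM in ISF (-2.36, FDR = 5.86e-12) and 35.3 ± 8.08 in SF (-1.84, FDR = 1.14e-08). In the last interval none was called in SF by limma-trend or voom, with 3 of the 16 at an unadjusted p under 0.05. The change of the fluid difference from 6 to 10 d was called, downward, for 3 of the 16 by limma-trend and for 0 by voom.

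For each member the 3 tested genes most like it over the 68 libraries were named by the Pearson correlation of log2(GeTMM + 1), a description in which the points share groups and horses. CDKN2D was most like DAGLB (0.951), APOBR (0.947) and CYP4F124 (0.945), and CDKN2C most like KIF2C (0.946), ZWINT (0.940) and NCAPG (0.938). CDKN1B was nearest to ELF2 (0.945), CCNI (0.929) and RETREG3 (0.929), and CDKN1A to RASSF8 (0.900), SLC6A8 (0.892) and TRPV2 (0.890). For BTG2 the genes were PDLIM7 (0.897), ARAP3 (0.893) and VSIR (0.892), and for CDKN2B they were SUCNR1 (0.884), USP53 (0.877) and PPARGC1A (0.871). CDKN2A had RUSC2 (0.843), DOCK6 (0.822) and NAV3 (0.814) nearest. MDM2 had the weakest likeness of the 8 members, with SLC37A3 (0.782), GPAT3 (0.775) and HIP1 (0.773). No member was among the 3 nearest genes of another.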

How the data were processed

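RNA of 68 libraries from 8 horses was analysed. As the authors describe, trimmed reads were aligned by STAR 2.7.2a, which also counted them, to the EquCab 3.0 genome, and the deposited table holds GeTMM, an RPKM-like linear value in which counts are divided by gene length before TMM scaling. The authors tested genes with DESeq2, and the processing notes also name edgeR. Which strand column was counted is not given in the sources used here, so reads of antisense genes may be included. The members and lists were chosen with earlier results of these data known.

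Values were transformed as log2(GeTMM + 1), and 14570 genes that reached 0.5 GeTMM in 7 or more libraries were kept. Tests used limma 3.58.1 in R 4.3.3 (lmFit, eBayes with a trend), two-sided, in 1 fit of 9 groups without a term for horse. The call threshold was an FDR of 0.05, adjusted by Benjamini and Hochberg across the tested genes. Fold changes are on this log2 scale and understate changes of low genes, and folds given as n-fold are ratios of mean GeTMM. The same horses gave all groups, so they pair the libraries: deviations from group means correlated at a median of 0.26 within horses (258 pairs) and -0.04 between horses (1796 pairs).

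Reads were recovered from the steps between values, which came within 0.02 reads of whole numbers for 24064 of 24065 genes. P-values of the main fit rest on the spread between libraries within groups, pooled over the 9 groups. Each library of a group is 1 culture well of 1 horse, so horse and well are not separated. The alternatives were a pseudocount of 0.1, no filter, a replicate block, the groups compared alone, library weights, voom on recovered reads, a required log2 change of 1, each horse left out, and the libraries of doubtful standing left out. The fitting and recovery steps were tested on simulated data. Named genes were the members with rows, TOP2A (MKI67 had no row), 1 gene that is not reported here, the 2 highest and 2 lowest called genes of each companion list from 0 hours to 10 days in ISF with a mean of at least 5 GeTMM in 1 group, and the 3 genes most like each member. Lists were described by counts and medians and not tested as sets. Python 3.11.15 and matplotlib 3.10.9 were used for summaries and figures.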

Additional observations from a re-analysis of the deposited data

Results flagged for a closer look

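In 72 groups of 7 or 8 libraries (8 members and 9 groups), a library stood apart from the rest of its group in 8 cases by Dixon's test at 95%, where chance would give about 5% of groups. For CDKN1A, Flash at 0 h held 24.1 GeTMM (515 reads) against 0.783 to 3.17 in the other horses. For CDKN1B, Moon held 1.97 GeTMM (12 reads) in SF at 6 d against 36.2 to 79.8, and RimRun 21.3 GeTMM in ISF at 6 d against 35.2 to 47.2. For CDKN2A, RimRun held 0.446 GeTMM (7 reads) in ISF at 96 h against 1.64 to 2.42, and Moon 1.54 GeTMM (26 reads) in ISF at 6 d against 2.82 to 4.22. For CDKN2B, Catnip held 5.75 GeTMM at 0 h against 9.21 to 12.9, and Moon 6.11 GeTMM (26 reads) in SF at 6 d against 15.4 to 32.6. For CDKN2C, RimRun held 6.43 GeTMM in ISF at 96 h against 13.4 to 18.5. Of the 8 cases 3 were libraries of Moon and 3 of RimRun.

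The difference between the fluids changed from 48 h to 10 d for CDKN2A, by 1.41 on the log2 scale (FDR = 0.0122 by limma), with ISF 1.31 above SF at the end and -0.09 at the start. For CDKN2C, all 7 horses went up from 48 to 96 h in ISF and all 7 went down in SF, a difference between the fluids that was not tested for that interval.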

How the results depend on the processing

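Of the 128 member results (8 members in 16 comparisons), 43 were called, 24 of them in each of the 17 alternatives and 30 in each apart from the limit on the fold change. Of the 85 not called, 64 were called in no alternative, and no called result changed sign. Between the fluids 9 of 32 results were called, a number that became 15 with library weights and 2 under the fold limit, and 6 (without Catnip, Dreamer or Lurie) to 12 (without Moon) with 1 horse left out. The calls over all tested genes moved too. At 48 h, 96 h, 6 d and 10 d they were 245, 1524, 4405 and 3027 in the main fit. With library weights they were 2233, 4206, 5447 and 3790, and under the fold limit 92, 402, 1086 and 924. Without Catnip they were 95, 1117, 3978 and 2299, and without Dreamer 75, 882, 3587 and 2206. Without Lurie they were 112, 939, 3847 and 2193, and without Moon 721, 2508, 5185 and 4086. The changes of the fluid difference gave 1 call, which became 0 with a pseudocount of 0.1, in the groups compared alone and with voom, 2 with the replicate block and 4 with library weights, and 0 (without Dealings or Flash) to 2 (without Moon) with 1 horse left out. From 48 h to 10 d, 436 of all tested genes were called in the main fit. That number was 395 with the pseudocount of 0.1, 577 in the groups compared alone and 333 with voom. It was 1095 with the block, 1641 with library weights, 255 without Dealings, 313 without Flash and 1174 without Moon. From 6 to 10 d, 33 of all tested genes were called in the main fit. That number was 270 with the block, 202 with library weights and 194 without Moon. The counts over intervals (18 of 64) and from 0 h to 10 d (15 of 16) stayed within 1.5 times in each alternative. The replicate block of horse added the 7 calls given with their values in the report and changed no other member's call. Depth limits CDKN2A most, with 2 to 38 reads per library until 96 h, and the cause of the changes with the settings was not tested.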
